A study of Mus musculus with 15 samples.

Results

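Oxidative phosphorylation was followed through 96 genes, 83 in the nuclear genome and 13 in the mitochondrial genome, out of 21013 gene rows in the deposited count table. The nuclear genes were taken by symbol (Nduf with a subunit letter, Uqcr, Cox with a subunit number, Atp5, and the 4 Sdh subunits, without the Ndufaf assembly factors), and the mitochondrial genes were the 13 that encode proteins. The names matched 103 rows, and the 7 nuclear rows that averaged under 1 CPM, a count scaled to the size of its library, were left out. These were Cox4i2, Cox6a2, Cox6b2, Cox8b, Cox7c-ps1, Ndufb4b and Ndufs6b. Cox8b lay just outside the minimum at 0.853 CPM, and Ndufa4l2 was the lowest gene inside it at 1.66 CPM. All 96 members passed the low-count filter that left 16042 genes for testing.

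RNA was sequenced from submandibular salivary glands of male wild-type C57BL/6 mice aged 8 to 10 weeks, with 3 libraries in each of 5 groups. The groups were nontreated glands (NT), glands collected 4 or 30 days after a local dose of 15 Gy (IR_4d and IR_30d), and glands that also received weekly injections of iEVs into the gland from day 1 (IR_iEV_4d and IR_iEV_30d). The series title speaks of extracellular vesicles from mesenchymal stem cells; the labels give no longer form of iEV. No group had a vehicle injection, so a difference between iEV and IR glands may hold the injection, and NT glands have no stated collection day, so age may differ. Nothing ties each library to a separate mouse, so p-values measure the spread between these libraries, which may be partly technical.

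Oxidative phosphorylation is the process by which mitochondria turn the electrons of NADH and succinate into ATP. Complexes I, III and IV pass electrons on to oxygen and pump protons across the inner membrane, complex II feeds in electrons from succinate without pumping, and complex V, the ATP synthase, uses the returning protons. Most subunits are made in the cytosol from nuclear genes, while a small set of core subunits is transcribed from mitochondrial DNA as long precursors, so the output of both genomes has to be matched. In salivary glands the striated ducts, which pump ions, are known for their dense mitochondria.

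The nuclear members comprised 40 gene rows assigned to complex I, 4 to complex II, 8 to complex III, 14 to complex IV and 17 to complex V. The mitochondrial members comprised 7 subunits of complex I (ND1 to ND6 and ND4L), CYTB of complex III, COX1, COX2 and COX3 of complex IV, and ATP6 and ATP8 of complex V. Some rows are uncertain, since reads may be shared with near copies (Ndufab1-ps, Ndufs5-ps and Ndufb4c) or overlapping neighbours. These near copies are counted among the 40 rows of complex I, and the ending -ps marks a pseudogene. ATP8, 204 bases long, shares 43 bases with ATP6, and ND4L shares 7 bases with ND4. ND6 lies on the strand opposite the other 12, and the strand setting used in counting is not given in the sources used here.

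Per length, the mitochondrial genes were far more abundant than the nuclear ones. In NT glands the level per kilobase of exon ran from 41.5 CPM (ND6) to 6486 CPM (COX1), with a median of 2573 CPM, for the mitochondrial genes. The nuclear genes ran from 1.79 to 194 CPM per kilobase, with a median of 26.7, over the 92 of 96 members that had a length. Length counted every exon base annotated in any transcript of a gene, and reached 6883 bases for Ndufab1 and 6443 for Atp5l. That lowers the level per kilobase of nuclear genes with several transcripts, so the gap may be overstated.

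The 13 mitochondrial genes together held 3.71, 3.44 and 3.50% of all counts in the NT libraries. They held 3.78, 3.71 and 3.93% in IR_4d, and 3.73, 4.24 and 3.66% in IR_iEV_4d. At day 30 the shares were 3.11, 2.94 and 2.98% in IR_30d and 3.64, 3.43 and 3.22% in IR_iEV_30d. All 3 IR_30d libraries therefore lay below the 12 others, whose lowest value belonged to IR_iEV_30d replicate 3. Group means were 3.55% ± 0.144 (SD, n = 3) in NT, 3.81% ± 0.111 in IR_4d, 3.01% ± 0.0869 in IR_30d and 3.43% ± 0.206 in IR_iEV_30d.

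The 83 nuclear genes together held a much smaller share, which was again low in IR_30d. Their share was 0.4999, 0.561 and 0.531% in NT, 0.578, 0.614 and 0.593% in IR_4d, and 0.566, 0.754 and 0.530% in IR_iEV_4d. It was 0.481, 0.472 and 0.494% in IR_30d and 0.564, 0.532 and 0.622% in IR_iEV_30d. The IR_30d libraries lay below the 12 others here too, by a narrow margin to NT replicate 1, and IR_iEV_4d replicate 2 stood highest.

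The ratio of mitochondrial to nuclear counts overlapped between all groups. Mitochondrial counts were 7.43, 6.13 and 6.58 times the nuclear counts in NT, 6.54, 6.05 and 6.63 times in IR_4d and 6.59, 5.62 and 6.89 times in IR_iEV_4d. The ratio was 6.47, 6.24 and 6.03 in IR_30d and 6.45, 6.44 and 5.18 in IR_iEV_30d. The group means of the log2 ratio ran from 2.58 (IR_iEV_30d) to 2.74 (NT). Taken instead as a difference of mean log2 CPM over members, which weights each gene equally, the means were 4.94 in NT and 4.74 to 4.76 in the 4 irradiated groups. NT libraries lay at 5.04, 4.82 and 4.96 on that scale and the irradiated libraries between 4.57 and 4.89, so only NT replicate 2 overlapped them. This difference was not tested. The low and variable ND6 counts as much as any other mitochondrial gene on that scale. Its log2 ratio against NT was -0.99 in IR_4d, -1.12 in IR_30d and -0.72 in IR_iEV_4d, each with an error of 0.49. In IR_iEV_30d it was -0.26 ± 0.48. The part of ND6 in the difference was not tested.

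**Figure D1:**
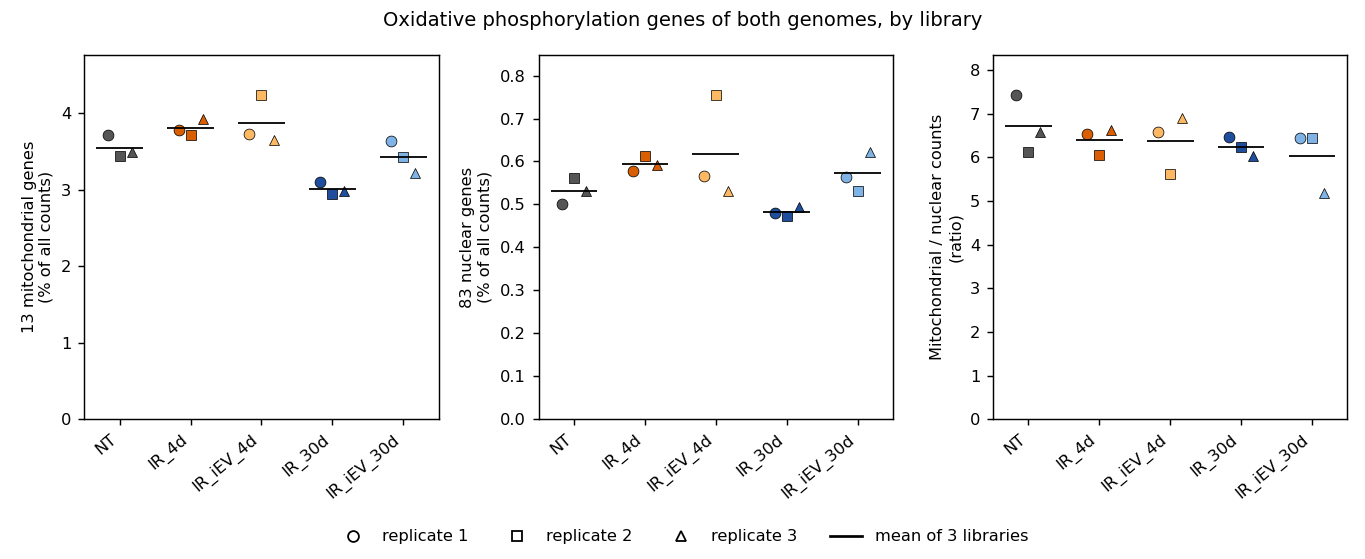
Share of all counts held by the 13 mitochondrial genes (left), by the 83 nuclear genes (middle) and the ratio of both (right), per library; symbols mark replicates and lines the mean of 3 libraries. The mitochondrial share of the IR_30d libraries (2.94 to 3.11%) lies below that of every other library, while the ratio overlaps between all groups.

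A share of counts also moves with other abundant transcripts, and those of the granular ducts moved with the groups. The summed level of 7 granular convoluted tubule genes, which secrete growth factors and kallikreins, was 169166 to 180089 CPM in IR_30d and 74978 to 101642 CPM in NT. With the 10 most counted non-mitochondrial genes removed from the total, the mitochondrial share was 5.18 to 5.50% in IR_30d, still below the lowest other library (5.79%, NT replicate 2). On CPM scaled between libraries by TMM, which all levels below use, the summed mitochondrial level of IR_30d (31300 to 32374 CPM) overlapped that of NT (from 32142 CPM) and of IR_iEV_30d (from 32009 CPM). The summed nuclear level of IR_30d (5004 to 5309 CPM) overlapped too, with NT (5123 to 5283 CPM), IR_iEV_4d (from 5291 CPM) and IR_iEV_30d (from 5204 CPM). The part of the granular duct transcripts in the lower share was not tested. In whole tissue, fewer cells of a mitochondria-rich type and less RNA per cell cannot be told apart.

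Promoter sequence of the nuclear members was searched for motifs, and no link between motifs and levels was tested. RefSeq promoters (GRCm38.p6, 250 bases before to 50 after the start) were found for 67 of the 83 nuclear members. Short motifs of 4 factors tied to respiratory genes were searched on both strands. NRF1, nuclear respiratory factor (GCGCATGCG), matched 8 of 67 genes (11.9%), against 3.51% of the 12155 tested genes with a promoter. GABPA (ACCGGAAG) matched 7 genes (10.4%, against 4.63%), YY1 (AAGATGGCG) 7 genes (10.4%, against 3.08%) and ERRA, the estrogen-related receptor (TCAAGGTCA), 2 genes (2.99%, against 0.321%). Over all 27025 genes of the table the shares were 1.95, 2.60, 1.64 and 0.466%.

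The promoters of 4 members are shown, motif letters in capitals. Those of Uqcrc1 (chr9:108936398-108936697, plus strand) and Cox6a1 (chr5:115348909-115349208, minus strand) carry an NRF1 motif inside a stretch that reads the same on both strands and so matched on each. That of Sdhb (chr4:140961021-140961320, plus strand) carries a GABPA motif. That of Atp5g1 (chr11:96075582-96075881, minus strand), the member with the lowest p in any comparison below, holds none of the 4 strings. Of the members that passed a test below, Ndufa4 and Ndufv1 also had a promoter in the table, and neither holds any of the strings. The first 3 promoters shown are thus of members that did not pass, chosen to show a match.
Uqcrc1: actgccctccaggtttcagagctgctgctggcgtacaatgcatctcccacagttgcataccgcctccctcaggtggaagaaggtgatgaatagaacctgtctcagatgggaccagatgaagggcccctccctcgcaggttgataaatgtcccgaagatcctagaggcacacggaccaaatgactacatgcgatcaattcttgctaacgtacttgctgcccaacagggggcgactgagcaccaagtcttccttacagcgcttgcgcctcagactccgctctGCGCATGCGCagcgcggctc
Cox6a1: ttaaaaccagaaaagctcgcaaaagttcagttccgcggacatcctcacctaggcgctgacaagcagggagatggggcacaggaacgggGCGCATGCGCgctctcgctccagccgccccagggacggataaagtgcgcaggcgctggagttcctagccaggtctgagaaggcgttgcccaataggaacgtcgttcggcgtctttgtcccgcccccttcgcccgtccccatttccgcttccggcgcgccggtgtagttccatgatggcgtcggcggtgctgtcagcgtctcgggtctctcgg
Sdhb: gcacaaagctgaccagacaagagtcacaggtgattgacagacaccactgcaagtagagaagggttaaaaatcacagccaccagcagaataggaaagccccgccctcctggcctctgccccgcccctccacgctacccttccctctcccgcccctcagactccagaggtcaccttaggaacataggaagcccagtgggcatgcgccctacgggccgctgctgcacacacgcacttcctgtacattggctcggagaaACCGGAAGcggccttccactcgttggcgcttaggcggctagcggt
Atp5g1: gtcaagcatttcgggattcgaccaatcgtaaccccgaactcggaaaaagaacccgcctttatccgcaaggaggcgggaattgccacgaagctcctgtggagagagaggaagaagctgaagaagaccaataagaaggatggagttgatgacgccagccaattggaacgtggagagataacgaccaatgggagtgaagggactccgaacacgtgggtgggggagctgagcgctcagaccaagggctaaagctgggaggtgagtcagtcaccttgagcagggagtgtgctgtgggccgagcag

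In the map of all members by library, many nuclear genes had their highest or lowest level in the same few libraries. IR_iEV_4d replicate 2 had the highest CPM of all 15 libraries for 42 of the 83 nuclear members, and IR_iEV_4d replicate 1 for 18. The lowest CPM fell in IR_30d replicate 1 for 24 members and in IR_30d replicate 2 for 18. Among group means, IR_iEV_4d was highest for 55 nuclear members, IR_30d was lowest for 43, and NT was lowest for 38. Of the 13 mitochondrial members, 9 had their highest group mean in IR_iEV_4d and 11 their lowest in IR_30d. These counts were not made over all genes, so whether other genes peak in the same libraries or groups was not tested.

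**Figure D2:**
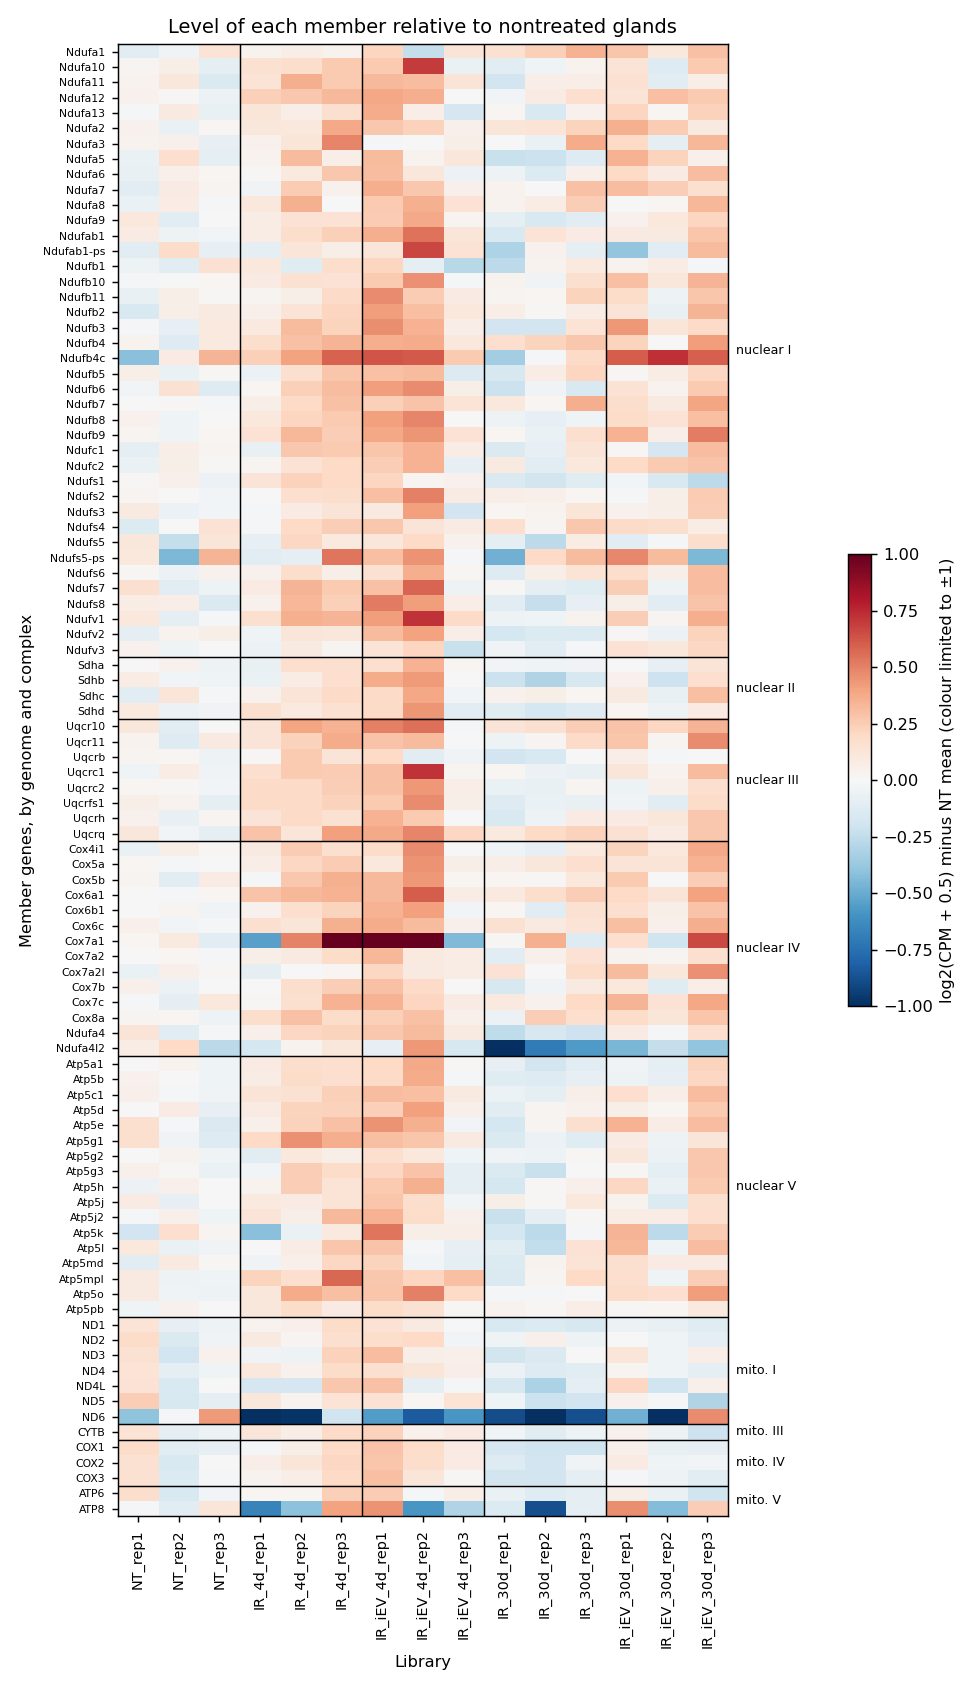
Level of each of the 96 members in each library, as log2(CPM + 0.5) minus the mean of the 3 NT libraries; rows are genes by genome and complex, columns are libraries, and colours are limited to 1 in either direction. IR_iEV_4d replicate 2, highest for 42 nuclear members, is red over most nuclear rows, and Cox7a1 and Ndufa4l2 differ from their neighbours.

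The libraries IR_4d replicate 3 and IR_iEV_4d replicates 1 and 2 carried transcripts of fat, including brown fat, a tissue dense in mitochondria. Ucp1, the uncoupling protein of brown fat, stood at 22.3 CPM in IR_4d replicate 3, 9.30 in IR_iEV_4d replicate 1 and 51.7 in IR_iEV_4d replicate 2. It was at most 0.365 CPM in the other 12 libraries, and at 0 in 7 of them. Cidea, a lipid droplet protein of brown fat, was at 12.02, 11.2 and 36.1 CPM in the same 3 libraries and at most 0.453 elsewhere. The whole list of 7 brown fat markers separated them less, at 103, 93.1 and 130 CPM against 27.6 to 70.8 CPM elsewhere. Ppargc1a and Dio2 of that list did not set these libraries apart. Ppargc1a in IR_iEV_4d replicate 2, the library highest in Ucp1, lay below every NT library, and Dio2 overlapped NT. The 8 adipose markers, all above 0 in these 3 libraries, summed to 111, 103 and 265 CPM there and to between 9.77 and 29.04 CPM elsewhere. IR_iEV_4d replicate 2 also held 114 CPM of skeletal muscle markers, against at most 5.56 CPM in any other library. Tissue of the neighbouring sublingual gland marked a partly different set of libraries. Its 4 markers summed to between 907 and 8205 CPM in NT replicate 1, IR_4d replicates 1 and 2, IR_iEV_4d replicates 2 and 3 and IR_iEV_30d replicate 2. They summed to at most 42.5 CPM in the rest. Parotid gland markers, 6 genes, summed to 220 to 6768 CPM in IR_4d, 1523 to 6259 CPM in IR_iEV_4d and 18.6 to 85.1 CPM in NT. At day 30 they summed to 35.3 to 425 CPM in IR_30d and 19.8 to 1820 CPM in IR_iEV_30d. Every day-4 library thus lay above NT in parotid markers, and the part of parotid tissue in the day-4 differences was not tested. The 8 submandibular acinar markers summed to between 50605 and 78757 CPM in every library, nearly all of it from Prol1. Levels of single acinar markers differed from that sum: Aqp5, the water channel of acinar cells, had 192, 210 and 216 CPM in IR_30d and 259 to 358 CPM in the other 12 libraries, and Kcnn4 had 195, 233 and 214 CPM against 233 to 311 CPM. The 8 macrophage markers summed to 251 to 326 CPM in IR_30d and to 137 to 245 CPM elsewhere. The 8 markers of striated ducts and ionocytes summed to 374 to 410 CPM in IR_30d, which overlapped only NT replicate 1 (389 CPM) among the other libraries (up to 485 CPM).

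Isoforms of complex IV known from muscle and brown fat were highest in these libraries. Cox7a1, the heart and muscle form of its subunit, had 3.74, 4.03 and 4.72 CPM in the 3 libraries and 0.828 to 2.56 CPM in the others. Cox8b, below the level minimum, had 1.89, 2.55 and 5.33 CPM against 0 to 0.917 CPM. The common isoforms were much more abundant and varied little: Cox7a2 ran from 33.9 to 46.3 CPM and Cox8a from 113 to 145 CPM over all libraries. Cox6a2 and Cox4i2 stayed at most at 0.316 and 0.524 CPM. The summed nuclear members were also high in these libraries, at 6024, 6238 and 6721 CPM, but IR_iEV_30d replicate 3 reached 6176 CPM and IR_4d replicate 2 reached 5979 CPM with Ucp1 at 0.0241 and 0 CPM.

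**Figure D3:**
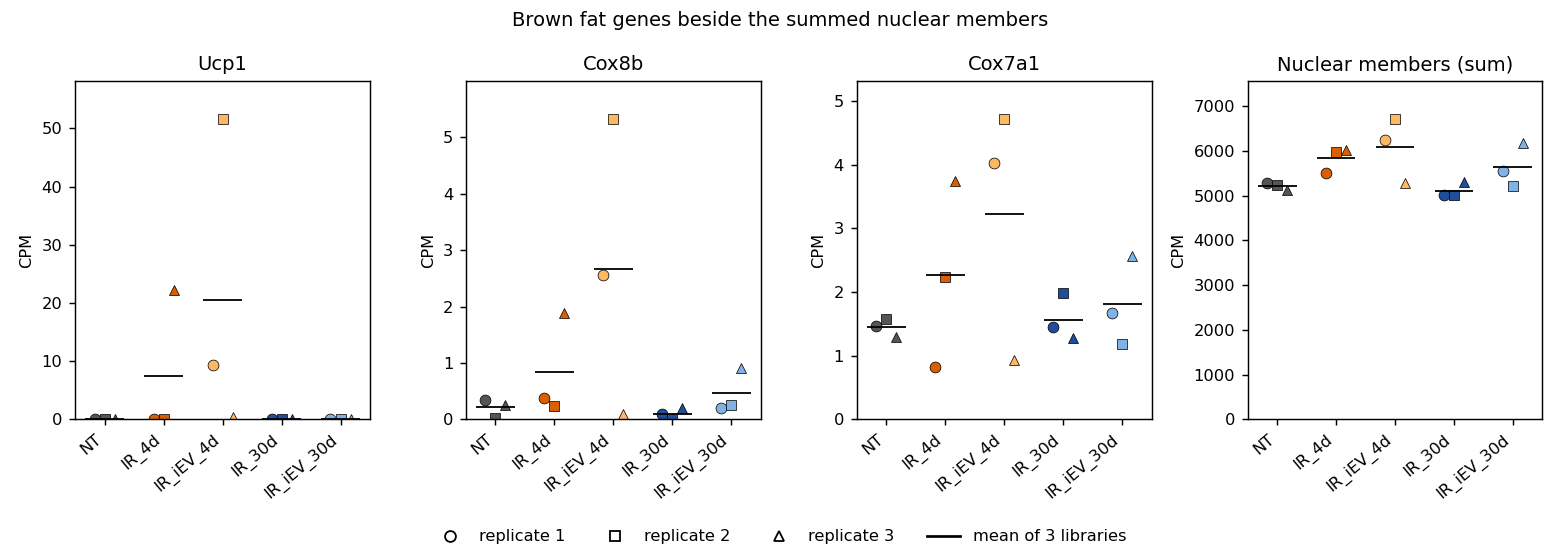
CPM per library of Ucp1, Cox8b and Cox7a1 and of the 83 nuclear members summed, by group; symbols mark replicates and lines the mean of 3 libraries. The 3 day-4 libraries with Ucp1 at 9.30 to 51.7 CPM are the highest in Cox8b and Cox7a1, and the summed level of the nuclear members is 6024 to 6721 CPM there.

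At day 4 after irradiation, most nuclear members of every complex had log2 ratios above 0, but none passed the test. No nuclear and no mitochondrial member had an adjusted p under 0.05 (edgeR quasi-likelihood test, Benjamini-Hochberg over all genes), where 1.40% of all genes did. At an unadjusted p under 0.05 there were 17 nuclear and 0 mitochondrial members (11.6% of all genes), and DESeq2 called 1 nuclear member, Atp5g1 (2.45% of all genes). The median log2 ratio of the nuclear members was 0.16, with 80 of 83 above 0, against a median of -0.00 and 49.4% above 0 over all genes. In 34 nuclear members all 3 IR_4d libraries exceeded all 3 NT libraries, where 9.07% of all genes did so. The mitochondrial median was 0.09, and no mitochondrial member separated the groups. Without the 3 libraries high in Ucp1 the medians were 0.13 and 0.04, with 78 nuclear members above 0.

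By complex at day 4, the nuclear medians against NT were 0.15 for complex I (40 of 40 above 0), 0.11 for complex II, 0.22 for complex III, 0.17 for complex IV and 0.14 for complex V. Atp5g1, a gene for the c subunit that forms the proton-driven ring of ATP synthase, had 73.1, 63.7 and 59.7 CPM in NT and 75.0, 89.6 and 83.9 CPM in IR_4d. The groups did not overlap, and the log2 ratio was 0.34 ± 0.09 (SE, adjusted p = 0.0872). Cox6a1, the common form of a regulatory subunit of complex IV, had 112, 112 and 114 CPM in NT and 137, 142 and 143 CPM in IR_4d. Its groups did not overlap either, at a log2 ratio of 0.32 ± 0.11 (adjusted p = 0.192). Uqcrq, a small subunit of complex III, followed with 0.28 ± 0.09 (adjusted p = 0.209).

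At day 30 after irradiation the genomes differed slightly in direction against NT, within the error of single genes. All 13 mitochondrial members had a log2 ratio below 0, with a median of -0.16, while the nuclear members were split, 39 above and 44 below 0, with a median of -0.02; over all genes the median was -0.00 and 49.4% lay above 0. One nuclear member passed the test and no mitochondrial member did, where 4.48% of all genes passed and 1.29% passed as lower. Of the mitochondrial members 1 (ND6) had an unadjusted p under 0.05 (16.3% of all genes), DESeq2 called 0 (6.72%), and 3 had IR_30d wholly below NT, a pattern found in 10.7% of all genes. Scaling by total counts alone moved the median of all genes to -0.11, the nuclear median to -0.12 and the mitochondrial median to -0.26. The nuclear median was 0.00 without NT replicate 2 and 0.03 without IR_30d replicate 1.

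The member that passed was Ndufa4l2, a homologue of the complex IV subunit Ndufa4 known to be induced by low oxygen. It had 2.06, 2.29 and 1.52 CPM in NT and 0.695, 1.00 and 1.14 CPM in IR_30d. No library overlapped, and the log2 ratio was -1.03 ± 0.28 (adjusted p = 0.0469). Levels were 1.28, 1.57 and 1.35 CPM in IR_iEV_30d, above all IR_30d libraries and overlapping NT, and the iEV difference at day 30 was 0.56 ± 0.29 (adjusted p = 0.441). Against NT the call was lost on leaving out NT replicate 1 or 2 or any 1 of the IR_30d libraries (adjusted p 0.0761 to 0.172), without the 3 libraries high in Ucp1 (0.0672), without the low-count filter (0.0636) and in a fit of its own groups (0.102). Without the 6 libraries rich in sublingual markers it was also lost (adjusted p = 0.175).

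Among the mitochondrial genes COX1, the catalytic core of cytochrome oxidase, had 11354, 9262 and 9445 CPM in NT and 8893, 8676 and 8684 CPM in IR_30d. IR_30d lay below NT in every library, with a log2 ratio of -0.20 ± 0.10 (adjusted p = 0.351). ND6, a membrane subunit of complex I, had 15.7, 20.6 and 28.3 CPM in NT and 11.1, 7.48 and 11.1 CPM in IR_30d. It showed the largest mitochondrial log2 ratio, -1.12, with a wide error of 0.49 (adjusted p = 0.291). ND6 was as variable elsewhere, from 4.26 CPM in IR_4d replicate 1 to 29.3 CPM in IR_iEV_30d replicate 3. ATP8, a small subunit of the ATP synthase stalk, ran from 44.0 to 113 CPM over all libraries, and the members of its genome other than ND6 varied far less.

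Between both irradiated groups, day 30 lay below day 4 in nearly all members, and this contrast held the most calls. A set of 4 nuclear members fell and none rose, where 6.81% of all genes passed the test and 1.99% passed as lower. No mitochondrial member passed: 28 nuclear and 6 mitochondrial members had an unadjusted p under 0.05 (19.8% of all genes). DESeq2, which called 8.9% of all genes, called ND1, COX1, ND4, COX2 and COX3, 5 mitochondrial members. The nuclear median log2 ratio was -0.17 with 79 of 83 below 0, the mitochondrial median was -0.19 with 13 of 13 below 0, and the median of all genes was -0.01 with 47.9% above 0. In 32 nuclear and 8 mitochondrial members all IR_30d libraries lay below all IR_4d libraries, as in 15.1% of all genes. Scaling by total counts alone shifted the median of all genes to -0.13, and the member medians went to -0.28 and -0.30. Without the 3 libraries high in Ucp1 they were -0.13 and -0.17, and 2 nuclear members passed as lower (1.07% of all genes).

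Cell type markers also moved in this contrast, where 6.81% of all genes passed in either direction and 1.99% passed as lower. Of 8 acinar markers 2 fell (Aqp5 and Ano1), of 8 markers of striated ducts and ionocytes 2 fell (Foxi1 and Slc9a3), and none of either list rose. The striated duct sum, 374 to 410 CPM in IR_30d, lay below that of IR_4d (421 to 466 CPM) and of IR_iEV_30d (422 to 480 CPM). Of 8 macrophage markers 7 rose, and of 7 granular duct markers 5 rose while Klk1 fell. Markers of other glands differed as well. Sublingual markers summed to 8205, 3024 and 30.1 CPM in IR_4d and to 2.21 to 38.4 CPM in IR_30d. Parotid markers summed to 220 to 6768 CPM in IR_4d and to 35.3 to 425 CPM in IR_30d. The part of these cell types and glands in the lower level of the members was not tested.

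Atp5g1 fell from 75.0, 89.6 and 83.9 CPM in IR_4d to 58.9, 62.5 and 59.9 CPM in IR_30d. The groups were well apart, the log2 ratio was -0.45 ± 0.09 (adjusted p = 0.00581), and the call was kept in every alternative run. Ndufs1, the largest subunit of complex I and a carrier of iron-sulfur clusters, fell from 71.0, 76.2 and 74.9 CPM to 58.9, 57.3 and 59.8 CPM. Its groups did not overlap, with a log2 ratio of -0.34 ± 0.08 (adjusted p = 0.0135). The call was lost without IR_4d replicate 2 (adjusted p = 0.0709), IR_4d replicate 3 (0.0508) or IR_30d replicate 2 (0.0589), and when the 6 libraries rich in sublingual markers were left out (0.185).

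Ndufa4 and its homologue Ndufa4l2 both fell in complex IV. Ndufa4 had 48.9, 54.4 and 55.3 CPM in IR_4d and 39.6, 42.2 and 40.9 CPM in IR_30d, without overlap, at a log2 ratio of -0.37 ± 0.09 (adjusted p = 0.0151). Its call was lost without IR_4d replicate 2 (adjusted p = 0.0787) or 3 (0.0690), without IR_30d replicate 1 (0.0669) or 3 (0.0586), without the 3 libraries high in Ucp1 (0.0652) and without the 6 high in sublingual markers (0.0688). Ndufa4l2 had 1.66, 1.99 and 2.13 CPM in IR_4d, again above all IR_30d libraries, at -1.02 ± 0.29 (adjusted p = 0.0406). Leaving out any 1 of the 6 libraries compared ended that call (adjusted p 0.0609 to 0.163), as did both sets of libraries left out together (0.134 and 0.243) and the lack of a filter (0.0547).

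**Figure D4:**
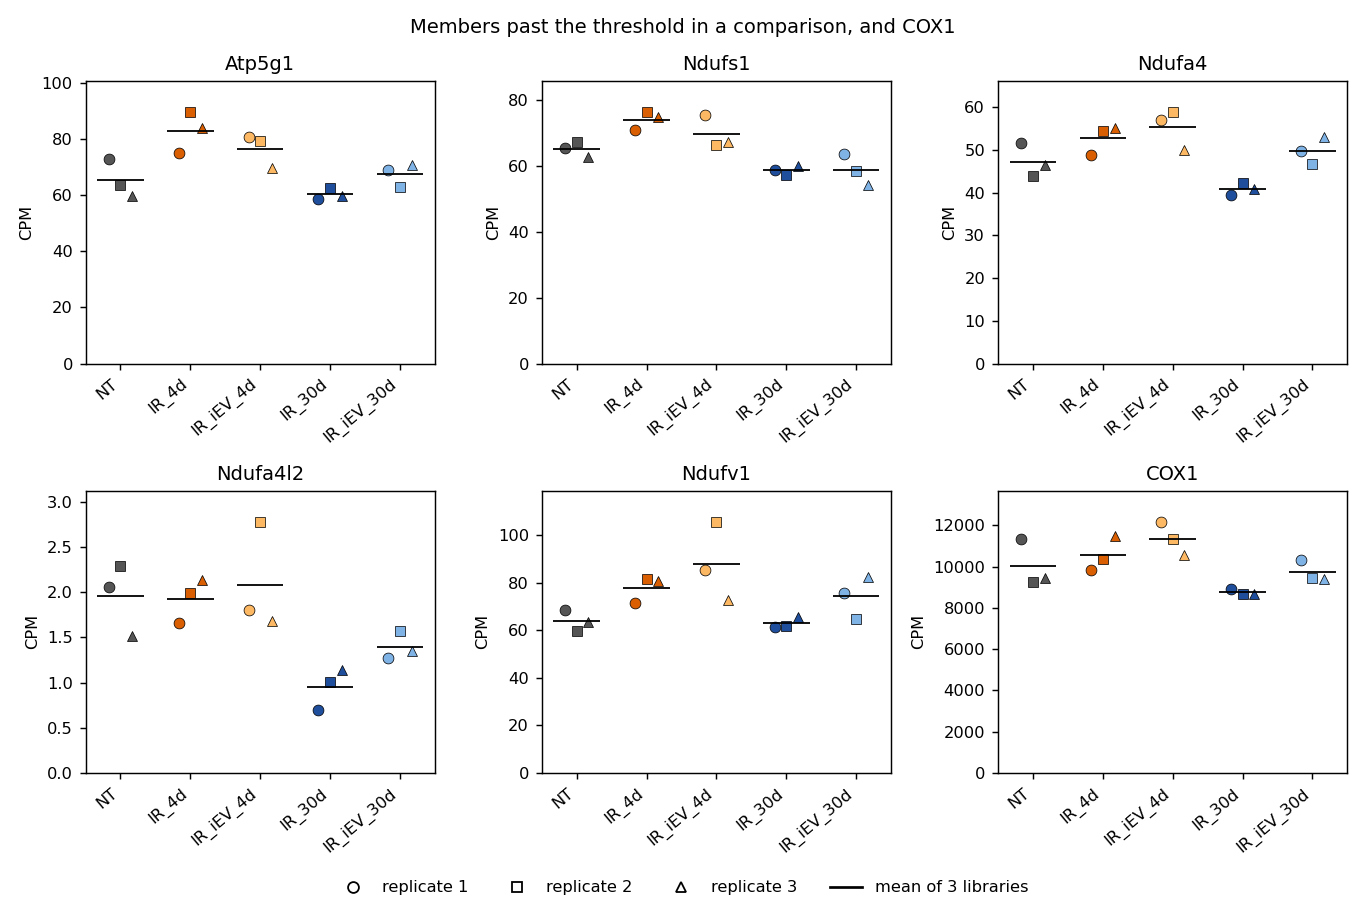
CPM per library of the 5 nuclear members that passed a test and of COX1, by group; symbols mark replicates and lines the mean of 3 libraries. IR_30d lies below IR_4d without overlap in all 6 genes, and Ndufv1 is highest in IR_iEV_4d replicate 2 at 106 CPM.

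Several large core subunits had lower levels at day 30 than at day 4 without passing. Atp5b, the catalytic beta subunit of ATP synthase, had 866, 935 and 923 CPM in IR_4d and 755, 754 and 777 CPM in IR_30d, without overlap (log2 ratio -0.25 ± 0.10, adjusted p = 0.163). Uqcrfs1, the Rieske iron-sulfur protein of complex III, had 89.9, 89.8 and 92.3 CPM and then 71.5, 75.1 and 74.6 CPM, likewise apart (-0.30 ± 0.10, adjusted p = 0.0778). COX1 had 9838, 10371 and 11482 CPM in IR_4d, all above its IR_30d values (-0.27 ± 0.10, adjusted p = 0.123). Sdhb, the iron-sulfur subunit of complex II, had 68.6, 75.7 and 80.8 CPM against 61.9, 58.4 and 64.3 CPM (-0.29 ± 0.11, adjusted p = 0.147), also with no overlap. Its partner Sdha, which binds succinate, had a log2 ratio of -0.12 ± 0.09 (adjusted p = 0.522).

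The number of calls in this contrast changed with the libraries that were fitted. When edgeR was fitted to the IR_4d and IR_30d libraries alone, 25 nuclear members and 7 mitochondrial members (COX1, COX2, COX3, ND1, ND4, ND5 and CYTB) passed, all lower. In that fit 15.2% of all 15020 genes tested passed, and 6.01% passed as lower. Its filter, scaling and spread all came from these libraries, and their parts were not separated. Members of complexes I to V were among the 25, including Atp5a1, Atp5b, Uqcrc1, Uqcrfs1, Ndufv1, Sdhb and Sdhd.

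Given iEVs, day-4 glands were close to irradiated glands of the same day. No member passed between IR_iEV_4d and IR_4d (0 at an unadjusted p under 0.05 in either genome, 0 by DESeq2), where 0.0312% of all genes did (6.81% unadjusted, 0.196% by DESeq2). The median log2 ratio was 0.06 for nuclear and 0.05 for mitochondrial members. That nuclear direction rested on few libraries: it was -0.00 without IR_iEV_4d replicate 2. Without the 3 libraries high in Ucp1 it was -0.11, but that sets the lone IR_iEV_4d replicate 3 against 2 IR_4d libraries and gives no direction for the group. The mitochondrial median was below 0 without IR_iEV_4d replicate 1 (-0.02) or IR_4d replicate 2 (-0.01).

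Against NT, IR_iEV_4d had 1 nuclear member called, higher, where 2.31% of all genes were called and 1.35% were called as higher. The nuclear median was 0.23, with 82 of 83 above 0 (48.4% over all genes), and 25 members lay wholly above NT, as did 9.72% of all genes. The mitochondrial median was 0.11, and 0 of 13 passed (0 at an unadjusted p under 0.05, 0 by DESeq2). Of the nuclear members 43 had an unadjusted p under 0.05 (16.6% of all genes), and DESeq2 called 4 (5.02% of all genes). Without the 3 libraries high in Ucp1, which leaves replicate 3 alone in IR_iEV_4d, the nuclear median was 0.05 with 55 of 83 above 0. That lone library is assumed to vary like the other groups.

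Ndufv1, the complex I subunit that binds NADH and flavin, was the member called. It had 68.5, 59.7 and 63.4 CPM in NT and 85.3, 106 and 72.7 CPM in IR_iEV_4d, without overlap, at a log2 ratio of 0.46 ± 0.12 (adjusted p = 0.0450). Leaving out IR_iEV_4d replicate 2, the library with the most fat and muscle transcripts, gave 0.30 (adjusted p = 0.211), and leaving out all 3 libraries high in Ucp1 gave 0.19 (0.844). The call was also lost without NT replicate 2 (adjusted p = 0.175) or 3 (0.160), without IR_iEV_4d replicate 1 (0.0905), with total-count scaling (0.0916), with the replicate number as a block (0.0797), in a fit of its own groups (0.179) and on leaving out the 6 libraries rich in sublingual markers (0.0910). Without IR_iEV_4d replicate 3, in contrast, 16 nuclear members passed, among them Ndufb8, Uqcr10, Uqcrc1, Cox6a1 and Sdhb, and without NT replicate 1 there were 3. The part of fat tissue in these differences was not tested beyond leaving libraries out.

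At day 30, iEV glands lay above irradiated glands in most nuclear members, but no difference passed the test. The median log2 ratio of IR_iEV_30d to IR_30d was 0.14 for nuclear members, with 79 of 83 above 0 (48.5% over all genes), and 0.10 for mitochondrial members, with 11 of 13 above 0. No member passed, where 0.798% of all genes did; 18 nuclear and 0 mitochondrial members had an unadjusted p under 0.05 (12.9% of all genes), and DESeq2 called 1, Ndufb4c (2.72% of all genes). In 18 nuclear and 2 mitochondrial members all IR_iEV_30d libraries exceeded all IR_30d libraries, as in 8.68% of all genes. Total-count scaling moved these medians to 0.24 and 0.20, beside a median of all genes of 0.0950. The granular duct markers, at 84367 to 120142 CPM in IR_iEV_30d, summed below IR_30d in all 3 libraries. Klk1 of that list lay the other way, at 5431, 3412 and 5490 CPM against 2977, 2092 and 2348 CPM in IR_30d. Striated duct markers summed higher in IR_iEV_30d and macrophage markers lower (174 to 245 CPM), both without overlap with IR_30d. The part of these markers in the differences was not tested.

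Ndufb4c, a near copy of the complex I gene Ndufb4 whose reads may be shared, had 5.62, 7.20 and 8.38 CPM in IR_30d and 11.4, 12.4 and 11.3 CPM in IR_iEV_30d. The groups were apart, with a log2 ratio of 0.73 ± 0.19 (adjusted p = 0.0875). Ndufa4 had 49.8, 46.8 and 53.0 CPM in IR_iEV_30d, all above its IR_30d values (0.29 ± 0.09, adjusted p = 0.158). Ndufa5, an accessory subunit of complex I, had 8.12, 8.14 and 8.69 CPM and then 12.3, 11.2 and 9.87 CPM, also apart (0.42 ± 0.13, adjusted p = 0.167). Ndufs1 did not share this pattern: its IR_iEV_30d values of 63.7, 58.6 and 54.2 CPM overlapped those of IR_30d, at a log2 ratio of 0.00 ± 0.08 (adjusted p = 0.990).

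Set against NT, the same glands had 0 members called in either genome, where 1.1% of all genes were (19 nuclear and 0 mitochondrial at an unadjusted p under 0.05, as 12.9% of all genes; DESeq2 called 1, Cox7a2l, and 2.38% of all genes). The nuclear median was 0.15 with 80 of 83 above 0 (49.3% over all genes), and 27 members lay wholly above NT (8.61% of all genes). The mitochondrial median was -0.05 with 4 of 13 above 0, and it turned to 0.04 without NT replicate 1, 0.00 without IR_iEV_30d replicate 3 and 0.03 with the 6 libraries rich in sublingual markers left out. Contrasts that share NT or IR_30d libraries are not independent of each other.

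The iEV difference at day 30 minus that at day 4 passed in 0 members of either genome, where 0.125% of all genes passed (3 nuclear and 0 mitochondrial at an unadjusted p under 0.05, where 9.03% of all genes lay; 0 by DESeq2, which called 0.659% of all genes). The lowest adjusted p among nuclear members was 0.489. Standard errors had a median of 0.11 for nuclear and 0.10 for mitochondrial members in the single contrasts and of 0.15 and 0.14 here.

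**Figure D5:**
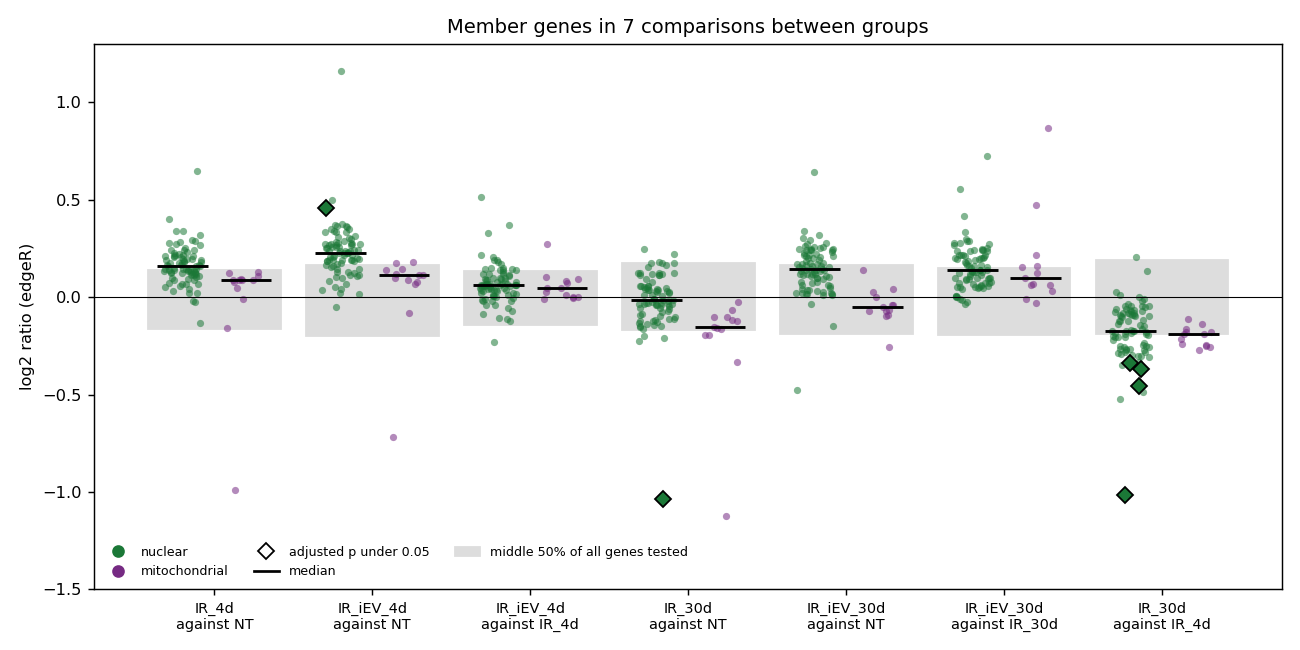
log2 ratio of each nuclear (green) and mitochondrial (purple) member in 7 comparisons; black lines are medians, diamonds passed the test, and grey boxes hold the middle 50% of all genes tested. Nuclear medians are 0.16 and 0.23 at day 4 against NT, -0.02 for IR_30d against NT, and -0.17 for IR_30d against IR_4d; Cox7a1 at 1.16 is the highest point.

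Other genes of the mitochondrial energy pathway were read from fixed lists beside the members. In IR_30d against IR_4d, 2 of 17 genes of the tricarboxylic acid cycle, which supplies NADH and succinate, fell, and none rose, beside the 1.99% of all genes that passed as lower. All 17 had a log2 ratio below 0, with a median of -0.23, where 47.9% of all genes lay above 0. They were Idh3a, a subunit of isocitrate dehydrogenase (-0.44 ± 0.11, adjusted p = 0.0200), and Fh1, fumarase (-0.44 ± 0.12, adjusted p = 0.0274). The Idh3a call was lost without IR_4d replicate 2 or 3 or IR_30d replicate 2 or 3 (adjusted p 0.0520 to 0.109). The Fh1 call was lost without IR_4d replicate 2 or 3 or IR_30d replicate 1 or 3 (0.0856 to 0.128), without the 3 libraries high in Ucp1 (0.0661) and without the 6 rich in sublingual markers (0.0804). Of 15 electron carriers and exchangers 1 fell: Cycs, cytochrome c, which shuttles electrons between complexes III and IV. It had 70.9, 80.0 and 80.5 CPM in IR_4d and 48.5, 55.4 and 51.8 CPM in IR_30d, without overlap (-0.57 ± 0.11, adjusted p = 0.00403), and its call was kept in every alternative run.

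Of 16 regulators of respiratory genes 2 fell in that contrast and none rose; 9 of the 16 had a log2 ratio below 0, with a median of -0.04, and 1.99% of all genes passed as lower. Ppargc1a, the coactivator PGC-1 alpha that drives mitochondrial biogenesis, had 42.5, 65.9 and 60.3 CPM in IR_4d and 31.0, 24.5 and 24.9 CPM in IR_30d, without overlap (-1.07 ± 0.27, adjusted p = 0.0332). Its relative Pprc1 had 42.6, 47.6 and 44.0 CPM and then 31.7, 36.3 and 30.1 CPM, also apart (-0.45 ± 0.11, adjusted p = 0.0165). The factors whose motifs were searched did not pass: Nrf1 had 15.4, 14.03 and 13.3 CPM in IR_4d and 13.02, 13.2 and 15.0 CPM in IR_30d, which overlap. Ppargc1a is also on the list of brown fat markers. Without the 3 libraries high in Ucp1 its log2 ratio was -1.03 (adjusted p = 0.0171), and beyond that the part of fat tissue was not tested. Its call was lost without IR_4d replicate 2 or 3, without any 1 IR_30d library (adjusted p 0.0616 to 0.128) and without the low-count filter (0.0604). That of Pprc1 was lost without IR_4d replicate 2 or IR_30d replicate 1 or 3 (0.0678 to 0.0913) and without the 6 libraries rich in sublingual markers (0.269).

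In the same contrast 1 of 48 assembly factors (Taco1, a translational activator of COX1, -0.55 ± 0.13, adjusted p = 0.0155) and 1 of 78 mitochondrial ribosomal protein genes (Mrps28, -0.37 ± 0.11, adjusted p = 0.0450) fell, and none rose, where 1.99% of all genes passed as lower. The Mrps28 call was lost on leaving out any 1 of the 6 libraries compared (adjusted p 0.101 to 0.153), and that of Taco1 without IR_4d replicate 1 or 3 or IR_30d replicate 2 (0.0551 to 0.0845). Both were lost without the 3 libraries high in Ucp1 (0.127 and 0.0661) and without the 6 rich in sublingual markers (0.371 and 0.202), and Mrps28 also without a filter (0.0793) and with the replicate block (0.0666). Of 34 genes for mitochondrial DNA upkeep and transcript handling 0 passed (6 at an unadjusted p under 0.05, where 19.8% of all genes lay).

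Elsewhere single genes passed, each losing its call when some single libraries were left out. Slc25a3, the phosphate carrier that supplies ATP synthase, rose in IR_30d against NT, from 252, 253 and 236 CPM to 313, 318 and 337 CPM (0.39 ± 0.09, adjusted p = 0.0201). The call was lost without NT replicate 3 or IR_30d replicate 2 or 3 (adjusted p 0.0629 to 0.0995) and with total-count scaling (0.287). Esrrg, an estrogen-related receptor of respiratory genes, was lower in IR_iEV_30d (268, 275 and 201 CPM) than in IR_30d (343, 395 and 385 CPM), without overlap (-0.59 ± 0.12, adjusted p = 0.0272). Its call was lost without IR_30d replicate 2 or 3 or IR_iEV_30d replicate 1 or 3 (0.0564 to 0.153), with total-count scaling (0.127) and in a fit of its own groups (0.0714). Sdhaf1, an assembly factor of complex II, and Mrps31 rose in IR_iEV_4d against NT (0.83 ± 0.18 and 0.53 ± 0.14, adjusted p = 0.0176 and 0.0495). The Mrps31 call was lost on leaving out any 1 of the 6 libraries (adjusted p 0.0871 to 0.136), and that of Sdhaf1 without NT replicate 3 or IR_iEV_4d replicate 1 or 2 (0.0548 to 0.0912). Without the 3 libraries high in Ucp1 they stood at 0.511 and 0.382, without the 6 rich in sublingual markers at 0.398 and 0.255, and in a fit of their own groups at 0.156 and 0.0689; Mrps31 was also lost with total-count scaling (0.121), without a filter (0.0666) and with the replicate block (0.0693). Pprc1 fell in IR_iEV_30d against NT (-0.51 ± 0.11, adjusted p = 0.0229). That call was lost without NT replicate 2 or IR_iEV_30d replicate 2 or 3 (0.0815 to 0.141), with total-count scaling (0.0656), in a fit of its own groups (0.197), without the 6 libraries (0.187) and without the 3 (0.0508).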

How the data were processed

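RNA of 15 libraries was measured by sequencing. The authors deposited whole-number read counts per gene symbol; the submitters' processing notes name TopHat, HTSeq, DESeq2 and GRCm39, without versions. Totals ran from 29082798 to 52201098 counts. The annotation, strand setting and handling of multiply mapped reads are not given in the sources used here. Every per-sample column was used (0 left out).

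The test of these counts was that of edgeR 4.0.16 (R 4.3.3), with TMM scaling, filterByExpr (minimum count 10, minimum total 15), 1 robust quasi-likelihood fit of all 5 groups with 10 residual degrees of freedom, and Benjamini-Hochberg adjustment over 16042 genes in each of 8 comparisons, with a threshold of 0.05. SE is the absolute log2 ratio over the square root of F. CPM are per effective library size. Sums over members have no test. The members and gene lists were chosen with earlier results of these data known. Named genes are the mitochondrial members, core subunits and isoforms, members that passed (or the 3 of lowest p in a direction) and up to 3 pathway genes of lowest p in each comparison with a call; some of these are given in counts only. Exon lengths and promoters came from annotations of the preceding build (GENCODE M21; RefSeq GRCm38.p6), so no other coordinates are given. The pipeline was tested on simulated counts. Alternatives were DESeq2 1.42.0, other scalings and filters, a replicate block, separate fits, and leaving out libraries singly, by sublingual markers (6) or, chosen after seeing the data, by Ucp1 above 5 CPM (3). They were run for the named pathway genes after seeing the data.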

Additional observations from a re-analysis of the deposited data

How the results depend on the processing

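No alternative run reversed the direction of a called gene. Of the alternative counts of called members, 225 stayed within 1.5 times the reported count, which includes counts that stayed at 0. A further 17 were higher and 26 lower. Of the sums by library 41 moved by less than 1 SD and 11 by more. The larger moves include every group under the alternative definitions of the share and the ratio, which are on another scale. The cause of the other shifts was not tested. For IR_4d against NT, nuclear calls went from 0 to 1 with DESeq2 and in a fit of its own groups, and ranged from 0 to 1 when single libraries were left out. For IR_30d against NT, the 1 nuclear call became 0 without a filter, with a mean of at least 5 CPM (Ndufa4l2 is then not tested), in its own groups, and with the 6 libraries rich in sublingual markers or the 3 rich in Ucp1 left out; single libraries gave 0 to 1. For IR_iEV_4d against NT, the 1 nuclear call became 4 with DESeq2, 2 with DESeq2 size factors, 2 without a filter, and 0 with total counts, the replicate block, its own groups, or without the 6 or the 3 libraries; single libraries gave 0 to 16. For IR_iEV_30d, DESeq2 called 1 nuclear member against IR_30d and 1 against NT, where single libraries gave 0 to 2. For IR_30d against IR_4d, the 4 nuclear calls became 7 with total counts, 25 in its own groups, 1 without the 6 libraries, 2 without the 3, and 1 to 3 without single libraries; the 0 mitochondrial calls became 5 with DESeq2, 1 with total counts and 7 in its own groups.

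Of 30 pairs of libraries with the same number in different groups, 6 correlated above 0.1 in their deviations from group means (range -0.36 to 0.29). Pairs with different numbers were not set beside them, so this does not settle whether libraries with the same number deviate together. Apart from the nuclear call in IR_iEV_4d against NT, the replicate block changed no count of called members by over 1.5 times. Over counts outside the 10 most counted non-mitochondrial genes the mitochondrial share was 6.37% in NT, 6.61% in IR_4d, 6.96% in IR_iEV_4d, 5.33% in IR_30d and 6.10% in IR_iEV_30d. Leaving out the 6 libraries kept only replicate 3 in IR_4d. Its mitochondrial share of all counts was 3.93%, against a mean of 3.81% for the whole group. By means of log2 CPM over members the log2 ratio of the genomes was 4.94, 4.75, 4.76, 4.74 and 4.75 in the same order. With 3 libraries a group and a median SE of 0.11, differences the size of the member medians could not be resolved gene by gene.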
